A study of Rattus norvegicus with 10 samples.

Results

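Giot1, the gene of gonadotropin inducible ovarian transcription factor 1, was measured by 1 probe set (1368775_at) among 31042 on the Affymetrix Rat Genome 230 2.0 array. It was the only probe set with Giot1 as its single symbol in the platform annotation (Entrez gene 171090, transcript NM_133563), 1 gene of the 14217 that the array names. The gene was chosen because its signal differed between dehydrated and control rats, so its levels are given as a description and carry no test. The RNA came from the hypothalamic paraventricular nucleus of male Sprague Dawley rats aged 10 to 12 weeks. In 1 group the rats had been dehydrated for 3 days, and the other group held control rats. Each group had 5 arrays, and each array carried RNA pooled from 5 animals, with separate animals in every pool. The labels give no genotype, transgene or drug in either group. In pooled tissue RNA, more cells that make a transcript and more transcript per cell cannot be told apart.

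Giot1 was first described in the rat ovary as a transcript induced by gonadotropin. Its protein belongs to the zinc finger proteins that carry a KRAB domain, a repressor module that recruits Trim28 and, through it, histone methyltransferases and deacetylases. Gonadotropins act on ovarian cells largely through cyclic AMP and protein kinase A, which activate factors of the CREB family at the cAMP response element, TGACGTCA. In the paraventricular nucleus, water deprivation is a stimulus to the magnocellular neurons that make vasopressin.

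The 250 bases upstream of the annotated start of Giot1 are shown because they hold this element. They lie at chr7:10886966-10887215 on the minus strand of GRCr8 and come from RefSeq. Capitals mark the match to the cAMP response element, which reads the same on both strands.
Giot1: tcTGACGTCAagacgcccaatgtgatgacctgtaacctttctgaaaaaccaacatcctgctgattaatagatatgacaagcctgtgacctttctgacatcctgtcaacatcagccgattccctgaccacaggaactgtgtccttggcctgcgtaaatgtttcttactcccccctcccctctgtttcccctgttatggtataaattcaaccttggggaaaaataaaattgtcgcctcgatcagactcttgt
The match runs from 248 to 241 bases before the start, at the far end of the window. The full element was found in 531 of 33469 promoter entries of this length, or 1.59%. Searched as either half-site, CGTCA or TGACG, 18.2% of entries held a match, and the only Giot1 half-sites were those inside the full element. The AP-1 motif TGANTCA, found in 6.34% of entries, had 0 matches in the Giot1 window. These are matches of letters only.

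Among 37 genes listed as driven by cAMP response elements or by neuronal activity, 29 had a promoter entry and 6 held the full element. Their windows are shown beside that of Giot1 for the bases around the element, again with the element in capitals.
Giot1: tcTGACGTCAagacgc
Vgf: gaacatTGACGTCAatgggg
Crem: ggctggTGACGTCActgtga
Dusp1: ggcgggTGACGTCAccaccc
Ier2: tttcagTGACGTCActctta
Btg2: caataaTGACGTCAgtgagc
Ppargc1a: tcggagTGACGTCAggagtt
The element began 90 bases before the start in Vgf, 56 in Crem, 124 in Dusp1, 66 in Ier2, 201 in Btg2 and 181 in Ppargc1a, all nearer the start than the 248 bases in Giot1. Only 250 bases were searched, so a match much farther out than that of Giot1 could not have been found. Crem had a further match, aagggcTGACGTCAttacat, in the entry of another start. In order, the windows lie at chr7:10887200-10887215 (minus), chr12:25277097-25277116 (minus), chr17:58984735-58984754 (plus), chr10:17184723-17184742 (plus), chr19:40399301-40399320 (plus), chr13:48087878-48087897 (minus) and chr14:63634121-63634140 (plus), and the further Crem window at chr17:58985449-58985468 (plus), all in GRCr8.

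Arrays of both groups were much alike, with pairwise correlations of log2 signals from 0.961 to 0.986. Control replicate 5 stood apart at 37.25 on the first principal component, where the other 9 arrays lay between -14.42 and 3.69. The number in its sample title also lies apart from the unbroken run of the other control titles. Title numbers run separately in each group, and what they stand for is not given. Dehydrated replicate 2 correlated as well with control arrays (0.9791 on average) as with the other dehydrated arrays (0.9786). The series design text names the supraoptic nucleus, whereas the title and all sample labels name the paraventricular nucleus. Of 7 markers of the labelled nucleus, the releasing hormone genes Crh and Trh had mean signals of 282 and 615 in controls and the transcription factor gene Sim1 62.1, while Otp and Pou3f2 lay below the array median on all 10 arrays.

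Giot1 signals of the dehydrated pools were 91.9, 94.2, 64.8, 79.4 and 51.1 for replicates 1 to 5. In the control pools they were 22.6, 20.0, 18.8, 18.0 and 25.1. Every dehydrated value lay above every control value, and the lowest dehydrated pool was 2.04 times the highest control pool. The means were 76.3 ± 18.3 and 20.9 ± 2.92 (SD, n = 5 each), a ratio of 3.65. Groups that did not overlap in this direction were found for 1.94% of the 18629 probe sets tested. The log2 difference was 1.68 ± 0.16 (standard error of the limma fit, on log2 of the signal plus 3.72), and 3 probe sets had a larger one, those of Tnfaip6, Caprin2 and Opn3.

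**Figure D1:**
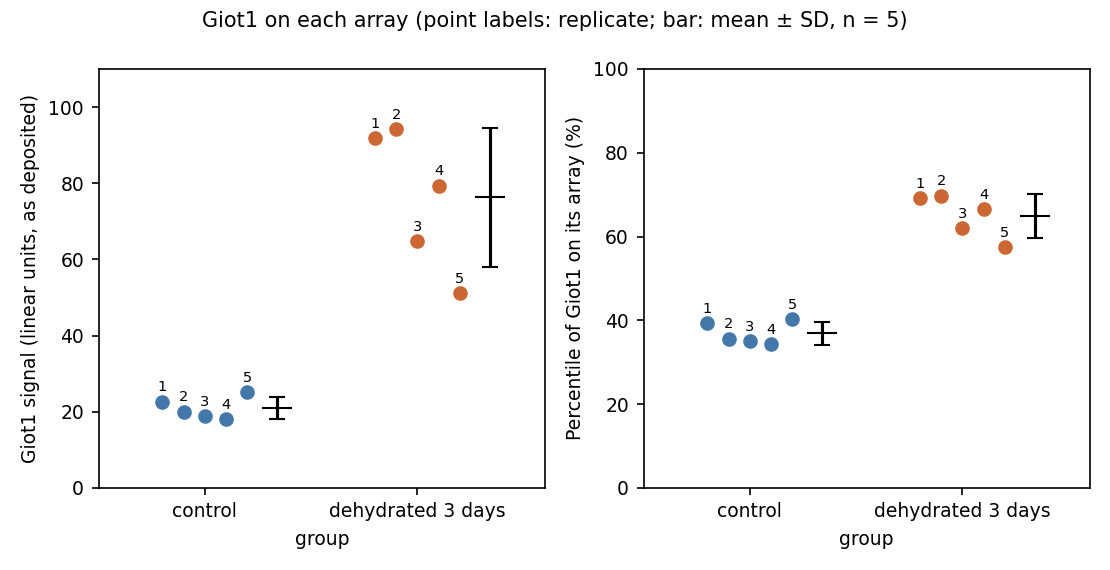
Giot1 on each array, as the deposited linear signal (left) and as its percentile among the 31042 probe sets of the same array (right). Points are pools labelled by replicate and bars are mean ± SD of 5. The dehydrated pools sit between 51.1 and 94.2 and the control pools between 18.0 and 25.1.

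The gene moved from the dimmer to the brighter side of the array. In control pools Giot1 ranked at the 34.3 to 40.3 percentile of its array, below the array median in all 5. In dehydrated pools it ranked at the 57.4 to 69.7 percentile, above the median in all 5. This measure does not depend on how an array was scaled. In 4 of the 5 control pools the signal was under 24.1, the mean that the filter on low values asked for, and Giot1 passed that filter through its dehydrated pools (mean of 48.6 over all arrays). The files hold no detection calls, so whether the control signal stood above background is not known here, and its size sets how large the fold appears. With a pseudocount of 64 the log2 difference was 0.71.

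Dehydrated pools were more spread than control pools. The highest dehydrated value was 1.84 times the lowest, against 1.39 times in controls. The SD of the log2 values was 0.352 in dehydrated pools, larger than that of 92.2% of the probe sets tested, where the median was 0.167. In control pools it was 0.168, close to the median of 0.168 over all probe sets. Dehydrated replicates 1 and 2 were highest and dehydrated replicate 5 lowest. Without control replicate 5 the log2 difference was 1.73, and without dehydrated replicate 2 it was 1.59.

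The immediate early gene Fos, whose product is a subunit of AP-1, did not pass the test. Its signals were 134.8, 163.7, 159.9, 117.0 and 156.4 in dehydrated and 194.6, 140.0, 127.5, 142.6 and 94.2 in control pools, so that the groups overlapped. The log2 difference was 0.09 ± 0.15 (limma adjusted p = 0.84). A second Fos probe set was dim, with means of 7.32 and 4.0, and was not tested. Egr1, a zinc finger factor induced by neuronal activity, had 166.3, 183.8, 188.8, 171.6 and 186.1 in dehydrated and 255.3, 200.3, 225.0, 234.9 and 183.6 in control pools. Its log2 difference was -0.28 ± 0.09 (limma adjusted p = 0.194), opposite in sign to that of Giot1, and only control replicate 5 overlapped with the dehydrated range. Vasopressin (Avp) had 5164.4, 3930.5, 5029.5, 5698.1 and 4960.0 against 3583.3, 2853.0, 2953.2, 3934.1 and 4333.5. Its log2 difference of 0.50 ± 0.11 did not pass (limma adjusted p = 0.0504), and dehydrated replicate 2, which had the highest Giot1 signal, had the lowest vasopressin signal of its group. Vasopressin signals came near the highest of the arrays, which ran from 4988.6 to 6495.5. The scanner's range compresses bright signals, so its difference and any relation with Giot1 may read too small, which was not tested.

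Because Giot1 fell into separate clusters by group, correlations were computed on deviations from the group means over the 10 arrays, which the choice of the gene had not used. With Fos, Pearson's r was -0.23 (exact permutation p = 0.442 over all pairings within groups, adjusted over the 8 genes compared 0.589) and Spearman's rho -0.05 (exact p = 0.942, adjusted 0.942). With Egr1, r was -0.38 (exact p = 0.166, adjusted 0.442) and rho -0.50 (exact p = 0.192, adjusted 0.492). With Avp, r was 0.02 (exact p = 0.95, adjusted 0.95) and rho 0.10 (exact p = 0.842, adjusted 0.942). Pools with more Giot1 than their group's mean therefore had no detectable excess or deficit of any of these 3 transcripts at 10 arrays. The 2 pools farthest from their group's Giot1 median were dehydrated replicates 5 and 2. Without them r was -0.36 for Fos, -0.51 for Egr1 and 0.40 for Avp, with exact p of 0.381, 0.183 and 0.315.

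**Figure D2:**
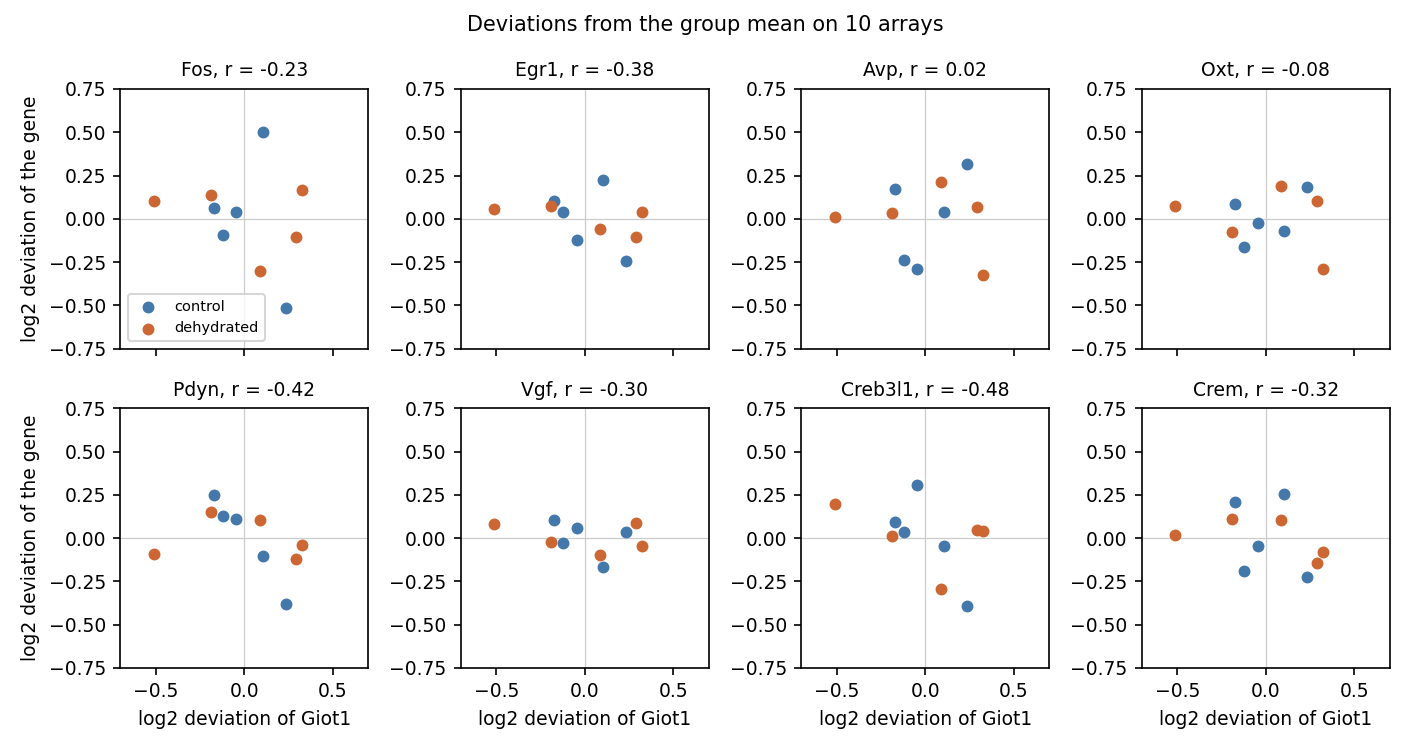
Log2 deviation of 8 genes (y) against that of Giot1 (x) from the group mean, 1 point per array in 2 colours for control and dehydrated pools. The r was -0.23 for Fos, -0.38 for Egr1 and 0.02 for Avp, and none of these passed. Those for Pdyn and Creb3l1 were negative and did not pass either.

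The other 5 genes of the family were oxytocin (Oxt), prodynorphin (Pdyn), the secreted peptide precursor Vgf, and the CREB family factors Creb3l1 and Crem. Their r ran from -0.48 for Creb3l1 to -0.08 for Oxt, with exact p from 0.13 to 0.856 and adjusted p from 0.442 to 0.95. Their rho ran from -0.60 for Pdyn to 0.05 for Oxt, with exact p from 0.109 to 0.942 and adjusted p from 0.492 to 0.942. Prodynorphin, a precursor of opioid peptides, had an r of -0.42. Without dehydrated replicates 5 and 2 its r was -0.88 (exact p = 0.00139, adjusted 0.0111), and without dehydrated replicate 5 alone -0.85 (exact permutation, adjusted p = 0.00833). The r stayed negative with each array left out, from -0.85 to -0.27. A second probe set was dim, with means of 16.6 and 16.5, below the filter, and gave 0.57. So the relation passed the threshold only without dehydrated replicate 5, among the removals run.

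Markers of other cell types were summed on each array. Oligodendrocyte sums were lower in every dehydrated pool than in any control pool, and those of the other types overlapped between groups. The summed signal of 7 measured oligodendrocyte markers was 6618.9 to 6833.7 in dehydrated and 7063.5 to 8524.9 in control pools, with 1 of 7 lower (Ermn) and all 7 negative. That of the red cell genes Hbb and Alas2 was 304 to 568 against 562 to 769, where Hbb was lower (log2 -0.67, limma adjusted p = 0.0305). That of 6 astrocyte markers was 7576.7 to 8672.6 against 8455.1 to 9416.0, of 6 endothelial markers 986 to 1086.2 against 794 to 1083, and of 6 microglial markers 556 to 694 against 622 to 702. For 7 measured markers of neighbouring hypothalamus it was 3301.6 to 5958.9 against 4095.2 to 6956.5. Pmch, with means of 3958.1 and 3866.5, made up most of that sum. Of the 4 tested, Pmch was positive (0.02) and 3 were negative, with a median of -0.58. These were Hcrt (-1.28), Hdc (-0.67) and Nkx2-1 (-0.50), with limma adjusted p of 0.233, 0.135 and 0.205. Among those tested, 1 astrocyte marker was positive and 5 negative, against 5 and 1 for endothelium and 1 and 3 for microglia. None of the astrocyte, endothelial, microglial or neighbouring hypothalamic markers tested was called. Over all probe sets 0.183% were called lower and 0.397% higher. How often probe sets or sums of this kind separate in the lower direction was not examined, so the oligodendrocyte separation has no share beside it. For the 7 markers of neurons of the nucleus the sum was 9016.2 to 12154.2 against 7489.2 to 9978.2, with 0 called, 5 of 5 tested positive and a median of 0.25. The 3 prime over 5 prime log2 ratio at the Gapdh control probe sets was 1.34 to 1.84 against 1.05 to 1.54, which overlapped too. No measured marker was at 0 on every array, and Itgam, Cx3cr1, Pomc, Nr5a1 and Vip lay below the array median on all of them. Within groups, the r of Giot1 was 0.69 with the red cell sum, 0.42 with the endothelial and 0.31 with the oligodendrocyte sum. It was -0.003 with the sum for neurons of the nucleus, -0.41 with the astrocyte, -0.25 with the microglial and -0.44 with the neighbouring hypothalamic sum. With the 3 prime over 5 prime log2 ratio at the Gapdh control probe sets it was -0.46. All are given as descriptions over 10 arrays. The part of these measures in the Giot1 difference was not tested.

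Other zinc finger genes were listed by name only, and the names do not tell which of their proteins carry a KRAB domain. Of 277 genes named Zfp, Znf, Zkscan, Zscan or Zbtb, with Rbak, Zik1, Zim1 and Peg3, 230 had a probe set above the filter. In limma 0 of the 230 passed in either direction at an adjusted p under 0.05, where 0.58% of all probe sets did (108 of 18629), and 0 passed in each alternative fit. An unadjusted p under 0.05 was found for 12, or 5.22%, against 12.7% of all probe sets. Their log2 differences ran from -0.40 to 0.41, with a median of -0.03 beside -0.01 for all probe sets. These counts are near or below the shares over all probe sets and single out nothing about the genes so named. They are not a count of KRAB genes. Zfp347, formerly named Giot2, had 88.6 ± 15.0 in dehydrated and 83.8 ± 13.2 in control pools (SD, n = 5 each), which differ by 0.07 ± 0.13 in log2 (limma adjusted p = 0.85). The 4 with the smallest p were Zfp950l1 (-0.40), the transcriptional repressor gene Zbtb18 (-0.31), Zfp94 (0.41) and Zfp462 (-0.30), with adjusted p from 0.135 to 0.241.

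The partners through which KRAB proteins repress had small differences. Of 22 listed genes 17 were tested, with a median of -0.02 beside -0.01 for all probe sets and a range of -0.22 to 0.17. In limma and in each alternative fit 0 passed, where 0.58% of all probe sets did in limma, and 2 (11.8%) had an unadjusted p under 0.05, against 12.7% of all, so these counts were near the overall shares. The corepressor gene Trim28 differed by 0.04 and the histone methyltransferase gene Setdb1 by -0.03. The smallest p were those of the deacetylase gene Hdac2 (-0.18 ± 0.06, adjusted p = 0.231) and the methyl-CpG binding gene Mbd3 (0.17 ± 0.07, adjusted p = 0.326), and then of Mta2 (-0.22) and Cbx1 (-0.19).

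**Figure D3:**
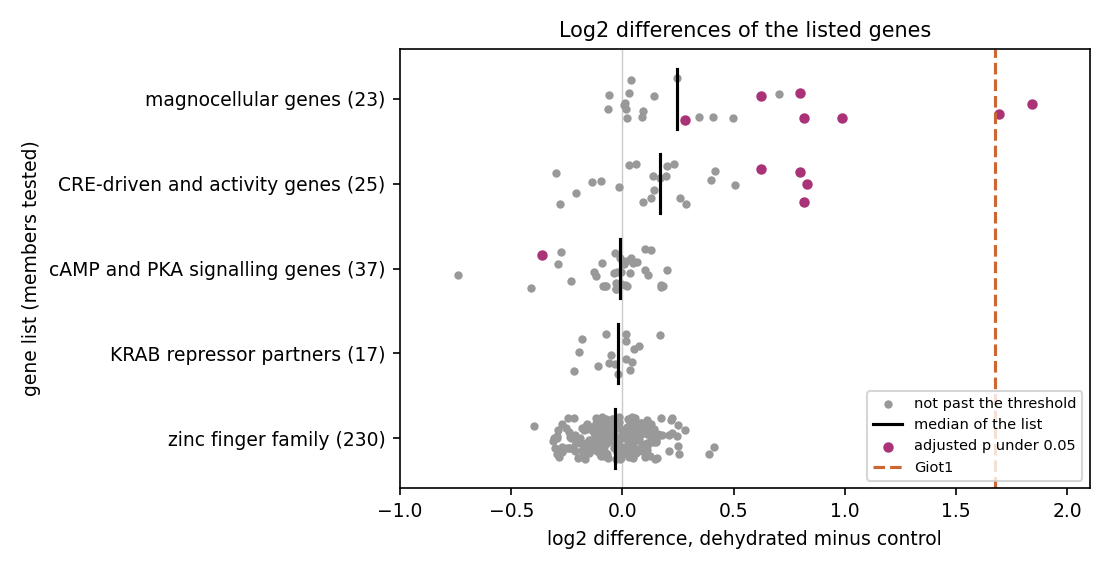
Log2 differences (x) of the tested members of 5 gene lists (rows), with the median of each list as a bar, genes past the threshold in colour and Giot1 as a dashed line at 1.68. The 230 zinc finger genes lie between -0.40 and 0.41 and none is past the threshold.

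Among genes of cyclic AMP and protein kinase A signalling, the median difference was -0.01, as it was over all probe sets. Of 44 listed genes 37 were tested, 1 fell, 0 rose and 36 did not pass. Over all probe sets 0.183% fell and 0.397% rose, so the 1 and 0 calls among 37 genes single out nothing about the list. Before adjustment 8 of them (21.6%) had p under 0.05, a share that was 12.7% over all probe sets. The coactivator gene Ep300 fell by 0.36 ± 0.08, from 345 ± 18.8 to 269 ± 29.9 (SD, n = 5 each; limma adjusted p = 0.0474, and 0.0145 to 0.133 over the alternatives). That call was lost on removal of any of 9 arrays, all but dehydrated replicate 2, with up to 0.132 without dehydrated replicate 4, and under 4 other settings. The phosphodiesterase gene Pde4a, whose product breaks down cyclic AMP, was at -0.74 ± 0.18 (adjusted p = 0.0797) and the adenylyl cyclase gene Adcy8 at -0.41 ± 0.11 (adjusted p = 0.103). The kinase regulatory subunit gene Prkar1a had 0.17 ± 0.06 (adjusted p = 0.224), Gnas 0.18, Prkaca 0.13 and Creb1 -0.23.

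Genes known to be driven by cyclic AMP response elements or by activity were split. Of 37 listed genes 25 were tested, 4 rose, 0 fell and 21 did not pass, where 0.397% of all probe sets rose. The 4 were Rasd1, Vgf, Pdyn and Creb3l1, and the list was chosen with earlier results on these arrays known. Rasd1, a Ras-related GTPase induced by glucocorticoids, had 253.7, 224.0, 271.6, 257.4 and 221.7 in dehydrated and 129.0, 136.9, 133.7, 144.2 and 137.9 in control pools. The groups did not overlap, and the log2 difference was 0.83 ± 0.08 (limma adjusted p = 3.9e-05). Creb3l1, a CREB family factor anchored in the endoplasmic reticulum, rose by 0.80 ± 0.14 on the log2 scale (adjusted p = 0.0159), a call lost when dehydrated replicate 3 was removed (0.0535). The list's median was 0.17, with 19 of 25 positive. Among the classical early genes, the tested Nr4a1, Nr4a2, Nr4a3, Jun and Arc had 0.03, 0.14, -0.30, 0.17 and 0.29, none past the threshold, and Fosb, Fosl2, Junb, Egr2, Egr3 and Egr4 lay below the filter. Crem, whose inducible repressor form is a product of cyclic AMP signalling, had 115 ± 9.14 and 100 ± 16.1 at its brightest probe set (0.20 ± 0.11, adjusted p = 0.454) and -0.28 ± 0.18 at the only other one tested (adjusted p = 0.554).

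Among magnocellular genes, 7 of 23 tested rose (30.4%) and 0 fell, where 0.397% of all probe sets rose. Of the 23, 21 were positive (91.3%, against 48.8% of all), and the median was 0.25 beside -0.01 over all. The list holds Caprin2, Opn3, Kcnn3 and Creb3l1, which were put on it with their rise on these arrays known, so its count is not independent evidence. The RNA-binding protein gene Caprin2 (log2 1.84) and the opsin gene Opn3 (1.69) had differences of the size of Giot1, followed by the potassium channel gene Kcnn3 (0.99), Pdyn (0.81), Creb3l1 (0.80), Vgf (0.62) and the peptide-amidating enzyme gene Pam (0.28). Kcnn3 had 24.1 to 40.7 in dehydrated and 12.7 to 18.3 in control pools, so that it passed the filter on low values through its dehydrated pools, as Giot1 did, and could be among the 7 only on that account. The Pam call was lost on removal of any of 6 arrays, with an adjusted p of up to 0.0968 without dehydrated replicate 3, and under 3 other settings.

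Carriage of the full cAMP response element was set against the differences over all tested genes with a promoter entry, leaving out Giot1. Of 265 genes with the element 4 rose and 0 fell, or 1.51% risen. Of 8487 without it 41 rose and 17 fell, or 0.483% risen. The medians were 0.02 and 0.00 on the log2 scale. The 4 genes, named after their values were seen, were Vgf, the transporter gene Abcg2, the lactate dehydrogenase gene Ldha and Rnf7.

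Genes were ranked by the Pearson correlation of their log2 signals with those of Giot1 over the 10 arrays, among 13593 probe sets with 1 symbol. The ranking mostly repeats the group difference by which Giot1 was chosen, so it is given without a test. The 10 most alike were the clathrin adaptor gene Ap1s2 (r = 0.96), Tnfaip6, which encodes a hyaluronan-binding protein (0.96), Dnttip2 (0.96), Opn3 (0.95), Caprin2 (0.95), Rasd1 (0.94), the poly(A) polymerase gene Tent5a (0.94), Eif4ebp1, whose product restrains cap-dependent translation (0.94), the cathepsin gene Ctsf (0.93) and Camk2g (0.93). All 10 had groups that did not overlap, with log2 differences from 0.31 to 2.40. Over all 18629 probe sets tested 1.94% did so in this direction. Ranking by r with a gene whose own groups were apart favours such genes, so this count is no separate result. Ap1s2 had 1173.7, 1172.4, 1141.3, 1076.2 and 965.0 in dehydrated and 914.3, 789.1, 825.7, 827.3 and 867.6 in control pools. Its lowest dehydrated pool was replicate 5, as for Giot1, which the ranking by r favours. Other probe sets of these genes did not all follow. The other tested one of Ap1s2 differed by 0.32 ± 0.06 and that of Tent5a by 0.31 ± 0.16, while that of Camk2g had -0.19 ± 0.11 and those of Dnttip2 0.05 ± 0.15 and -0.22 ± 0.15. None of the 9 of these genes with a promoter entry held the full cAMP response element (0 of 9). Over all genes with a promoter entry 1.78% held it, so 0 of 9 singles out nothing about them.

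**Figure D4:**
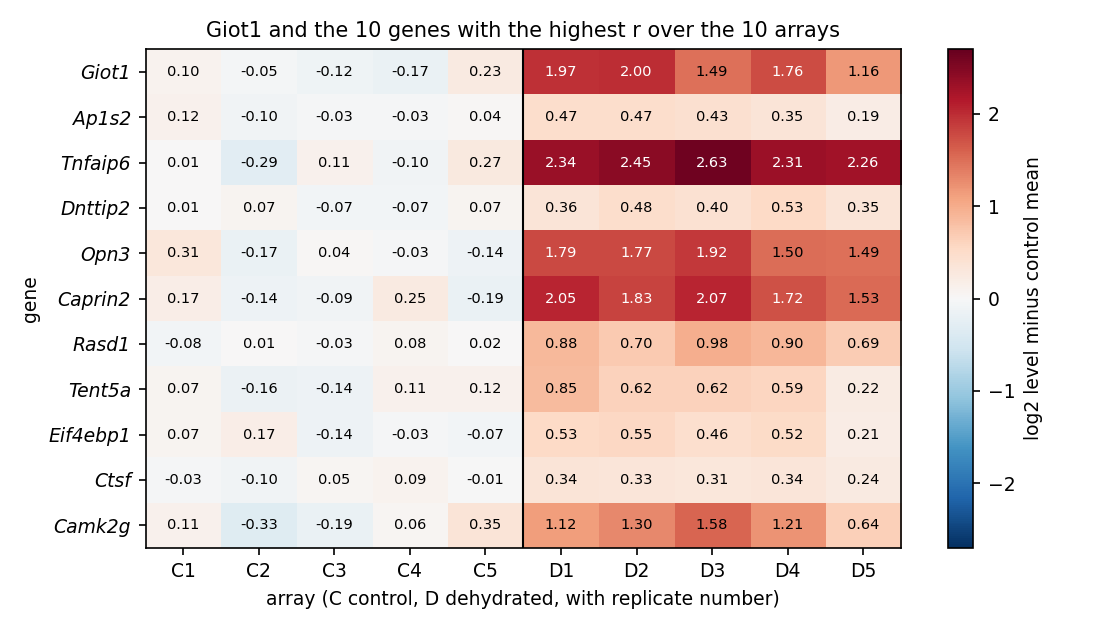
Log2 level minus the control mean of Giot1 and the 10 genes with the highest r, by array (C1 to C5 control, D1 to D5 dehydrated), with the values printed in the cells. Dehydrated replicate 5 is the lowest dehydrated pool for Giot1 at 1.16, and also for Ap1s2, Tnfaip6, Dnttip2, Opn3, Caprin2, Rasd1, Tent5a, Eif4ebp1, Ctsf and Camk2g. Ranking by r with Giot1 favours genes that share its lowest pool, so this is no separate result. Some margins are small, as for Opn3 (1.494 against 1.498 in dehydrated replicate 4).

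Once group means were removed, the r of these genes with Giot1 was lower and varied more. It stayed positive for all 10 and ran from 0.04 for Rasd1 to 0.78 for Ap1s2. The 10 most alike within groups included 0 of them. That count says little, as such short lists from 13593 probe sets seldom share a gene. Tnfaip6, Opn3 and Caprin2, whose differences between groups were larger than that of Giot1, each had an r of 0.24 within groups. The 5 most alike within groups were Mios, a component of an amino acid sensing complex (0.95), the centrosomal protein gene Cep120 (0.94), the TFIID subunit gene Taf6 (0.94), Cdc23 (0.94) and the Wnt pathway factor gene Tcf7l1 (0.92), whose differences between groups were small and negative, from -0.19 to -0.03. Cdc23, a subunit of the anaphase-promoting complex, had 52.3, 54.1, 37.8, 40.8 and 33.7 in dehydrated and 48.0, 47.9, 41.9, 44.7 and 57.5 in control pools, so its groups overlapped. Among its dehydrated pools replicates 1 and 2 were highest and replicate 5 lowest, as for Giot1, which the choice by r within groups favours.

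The 5 genes most opposite to Giot1 over the 10 arrays were Lix1 (r = -0.96), the exocyst gene Exoc2 (-0.94), Sharpin (-0.94), the inward rectifier channel gene Kcnj6 (-0.93) and the metalloproteinase gene Mmp15 (-0.93). Their log2 differences were small, from -0.41 for Mmp15 to -0.16 for Exoc2. Lix1 had 256.8, 269.5, 272.7, 274.6 and 278.2 in dehydrated and 321.8, 339.5, 316.2, 331.1 and 306.6 in control pools, which did not overlap. Ranking by r with a gene whose own groups were apart favours this too, so it is no separate result. The share of all probe sets that separate in the lower direction was not examined.

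The genes beside Giot1 on chromosome 7 were read for their own differences. Of the 5 nearest protein-coding genes on either side, a set chosen after the files had been seen, 4 had a tested probe set, and 0 passed in limma, with an unadjusted p under 0.05 for 1, Plpp2. Over all probe sets 0.58% were called and 12.7% had an unadjusted p under 0.05, so 0 and 1 of 4 genes single out nothing about the position. Plpp2, the nearest on one side, had 70.0 ± 8.47 in dehydrated and 53.6 ± 10.2 in control pools (SD, n = 5 each), which differ by 0.38 ± 0.13 in log2 (limma adjusted p = 0.248). Mier2, Shc2 and 2610008E11Rikl differed by 0.18, 0.04 and 0.11 (adjusted p = 0.602, 0.927 and 0.699). Vom2r53, the nearest on the other side, and Spmap2 lay below the filter, with means of 14.4 and 11.6 and of 24.8 and 22.1. The other 4 had no probe set with a single symbol.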

How the data were processed

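The authors deposited linear intensity signals, with 1 value for each probe set on each array. Per the submitters' processing notes they used GCOS 1.2. Which signal algorithm and background step they applied is not given in the sources used here. With 2% of the values trimmed at each end, every array had a mean of 100.0, as arrays scaled to one level have. Medians ran from 36.4 to 39.1 and the highest signals from 4988.6 to 6495.5. The scanner's range compresses bright signals, such as those of Avp and Oxt, and dim ones include background. The number of arrays limits the precision.

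Of 31099 probe sets, 57 controls were left out. Of the rest, 20826 had 1 symbol, 436 several and 9780 none; symbols were updated by Entrez identifier for 20758. Groups came from the source names, replicates were numbered in accession order, and nothing pairs them. The labels give no batch. The limma p-values set each difference against the variation between pools, moderated over probe sets. Those of the correlations place r among the pairings within groups.

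Signals were used as log2(signal + 3.72), a pseudocount of 0.1 of the median of the array medians. The 18629 probe sets with a mean of at least 24.1 (40th percentile) were fitted with limma 3.58.1 in R 4.3.3 (lmFit, eBayes with trend, two-sided), adjusted by Benjamini-Hochberg over all of them, at a threshold of 0.05. Giot1 was fitted but not tested. The brightest probe set stood for each listed gene. Correlations within groups used all pairings, two-sided, adjusted over 8 genes. Named genes were those compared with Giot1, the called members or the 4 smallest p of each list, and the 10 most and 5 least alike and the 5 most alike within groups. Members and lists were chosen with earlier results of these data known. Promoters are RefSeq entries of GRCr8, 250 bases before the start. The protein sequence was not used here. Alternatives were 2 scalings, 3 pseudocounts, 2 filters, no variance trend, array weights, other probe sets and each array left out.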

Additional observations from a re-analysis of the deposited data

Results flagged for a closer look

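Of 38 groups of 5 pools examined (Giot1, the 8 genes compared with it and the 10 genes most like it, in each condition), 1 held a pool set apart from the rest. Eif4ebp1, which encodes a translation repressor, had 67.9 in dehydrated replicate 5 against 81.7 to 87.2 in the other 4 dehydrated pools, a gap of 0.738 of the group's log2 range, above the critical value of 0.71. Chance alone sets apart about 1 in 20 such groups. Dehydrated replicate 5 also had the lowest Giot1 signal of its group, 51.1, which was not set apart by this measure.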

How the results depend on the processing

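The Giot1 log2 difference of 1.68 kept its direction under all alternatives run. With the gene chosen for this difference and its groups apart, that direction was largely fixed in advance and is no support. The size was 1.33 with 4 times the pseudocount and 0.71 with a pseudocount of 64, as a larger pseudocount shrinks the difference of a dim probe set. With each array left out it was 1.59 to 1.80. With a filter at the 60th percentile Giot1 was not among the probe sets tested. The count of 108 called probe sets was 201 with array weights, 64 without a filter, 45 without the variance trend and 46 to 148 with each array left out (46 without dehydrated replicate 3, 148 without control replicate 5); the cause was not tested. The 1 call among cyclic AMP genes, Ep300, was 0 with median centring, without a filter, without the variance trend and with quantile normalization, and 0 to 1 with each array left out. The correlation with Avp turned to -0.04 with median centring, -0.01 with 4 times the pseudocount and -0.07 with a pseudocount of 64, and ran from -0.20 to 0.38 with each array left out. That with Oxt turned to 0.13 with quantile normalization, 0.05 by ranks and 0.56 without the 2 farthest arrays, and ran from -0.27 to 0.38. That with Pdyn was -0.88 without the 2 farthest arrays, 0.57 at its other probe set, which lay below the filter, and -0.85 to -0.27 with each array left out. For Fos the other probe set, dim at means of 7.32 and 4.0, gave 0.51. Beside -0.32 at the brightest Crem probe set, the others gave -0.30, -0.36, -0.40, 0.24 and 0.38, the last at the only other one tested. Of the 10 genes most like Giot1, 3 were kept by Spearman's rho and 5 without control replicate 5. No paired analysis was possible because the labels give no replicate numbers shared between groups. The array weights for the Giot1 difference were added after seeing the data.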
